A study of Mus musculus with 73 samples.

Results

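The genes described here build ribosomes: 53 genes of ribosomal RNA transcription, pre-rRNA processing, modification and ribosomal subunit assembly, most of them encoding proteins of the nucleolus. They were chosen by name and function, with earlier results of these data known, and all 53 were found among the 25220 gene symbols measured. The study, on histone H3.3 in mouse embryos, holds 73 samples. Its 8 RNA-seq libraries were used, and 65 samples were not analysed here. The libraries came from 3 samples of p150DN 8-cell embryos, 2 of EGFP blastocysts and 3 of EGFP 8-cell embryos. All were cultured in KSOM medium and carried the same hybrid background of the strains C57BL/6 and C3H. p150DN denotes a dominant-negative form of p150, the Chaf1a-encoded subunit of the chromatin assembly complex CAF-1, which deposits histones on replicating DNA. EGFP, a green fluorescent protein, marks the control embryos at both stages. The sources used here do not give how p150DN and EGFP were introduced or how many embryos were pooled.

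Ribosome production starts in the nucleolus, where RNA polymerase I copies the ribosomal DNA repeats into a long precursor. The precursor is wrapped co-transcriptionally by a large particle, the small subunit processome, which folds and cleaves the part that becomes the small subunit RNA. Small nucleolar ribonucleoproteins (snoRNPs) modify its nucleotides, and other assembly factors carry the small and large subunits towards export. Nucleoli of the mouse zygote are largely inactive and gain ribosome production during cleavage. MYC, a transcription factor that binds the letters CACGTG with its partner MAX, is a known activator of many of them.

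Chaf1a was at 165, 254 and 238 FPKM in p150DN 8-cell embryos, 26.5 and 27.2 FPKM in EGFP blastocysts and 27.7, 30.2 and 28.8 FPKM in EGFP 8-cell embryos. FPKM divides the fragments of a gene by its length and the library total, so levels can be compared between genes. The p150DN libraries thus all lay above the EGFP libraries (log2 fold change 2.86 ± 0.17 SE against EGFP 8-cell embryos, limma adjusted p = 5.47e-05). The libraries held 16578221 to 22488477 fragments. p150DN replicates 2 and 3 detected the most genes, 20465 and 21282 above 0, against 17310 to 18991 in the other 6 libraries. The summed level of 10 trophectoderm markers, genes of the outer layer of the blastocyst, was 335 to 542 FPKM in p150DN embryos, 1142 to 1204 FPKM in blastocysts and 102 to 119 FPKM in EGFP 8-cell embryos. Of those tested, 6 of 7 rose for p150DN and 8 of 9 for blastocysts. Tfap2c alone gave 80.7 to 94.0 FPKM of the sum in EGFP 8-cell embryos. It was lower in all p150DN libraries, at 64.9 to 76.3 FPKM, and at 74.2 to 92.2 FPKM in blastocysts. The 6 inner cell mass markers summed to 518 to 722 FPKM in p150DN embryos, 865 to 926 FPKM in blastocysts and 427 to 575 FPKM in EGFP 8-cell embryos. Pou5f1 alone gave 389 to 535 FPKM of this in p150DN embryos, 589 to 625 FPKM in blastocysts and 235 to 391 FPKM in EGFP 8-cell embryos. Of the 6, 3 rose and 2, Klf2 and Esrrb, fell in each comparison, Klf2 with 48.8 to 53.1 FPKM in p150DN embryos, 13.5 to 16.5 FPKM in blastocysts and 102 to 112 FPKM in EGFP 8-cell embryos. The 5 primitive endoderm markers summed to 102 to 147 FPKM in p150DN embryos, 143 to 151 FPKM in blastocysts and 117 to 177 FPKM in EGFP 8-cell embryos. Of those tested, 1 fell and 1 rose of 3 for p150DN, and 1 fell and 2 rose of 4 for blastocysts. The one that fell was Gata4, at 5.89 to 10.04 FPKM in p150DN embryos, 0.712 to 0.718 FPKM in blastocysts and 39.6 to 54.9 FPKM in EGFP 8-cell embryos. The 5 oocyte and maternal markers summed to 26.6 to 59.2 FPKM in p150DN embryos, 7.48 to 8.62 FPKM in blastocysts and 61.3 to 77.4 FPKM in EGFP 8-cell embryos. For the 5 markers of the 2-cell stage the sums were 16.5 to 81.9 FPKM in p150DN embryos, 0.169 to 0.523 FPKM in blastocysts and 53.9 to 80.8 FPKM in EGFP 8-cell embryos. Most of the 8-cell sums came from Tdpoz4, at 15.2 to 76.1 FPKM in p150DN embryos and 48.6 to 68.4 FPKM in EGFP 8-cell embryos. All 6 cumulus and granulosa markers and all 3 haematopoietic markers lay under 1 FPKM in every library. The part of these shifts in cell type and stage markers in the results below was not tested. In whole embryos, fewer cells of a type and less RNA per cell cannot be told apart. Whether replicates were separate cultures or litters is not stated in the labels. The p-values therefore reflect only how far these libraries differ, which could be technical.

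By their median, the ribosome biogenesis genes were well expressed in all 3 groups, at 53.6 to 81.6 FPKM across the libraries. The median of all genes tested for p150DN was 7.50 to 10.2 FPKM. The lowest value of any of the 53 genes was 9.68 FPKM, of the small subunit factor Rrp36 in p150DN replicate 3. It lay under the median of all tested genes in that library, 9.93 FPKM. The highest value of the 53 genes was 1969 FPKM, of the nucleolar chaperone Npm1. Each value rested on at least 415 counted fragments, and all 53 genes passed the filter on low values in both comparisons. Their share of the summed FPKM of all genes was 1.76%, 1.56% and 1.59% in p150DN 8-cell embryos. It was 1.19% and 1.20% in EGFP blastocysts, and 2.02%, 1.94% and 1.90% in EGFP 8-cell embryos. The p150DN libraries stood between the other groups with no overlap. Without Npm1 the shares were 1.30%, 1.23% and 1.17% in p150DN embryos, 0.876% and 0.899% in blastocysts, and 1.61%, 1.57% and 1.53% in EGFP 8-cell embryos.

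**Figure D1:**
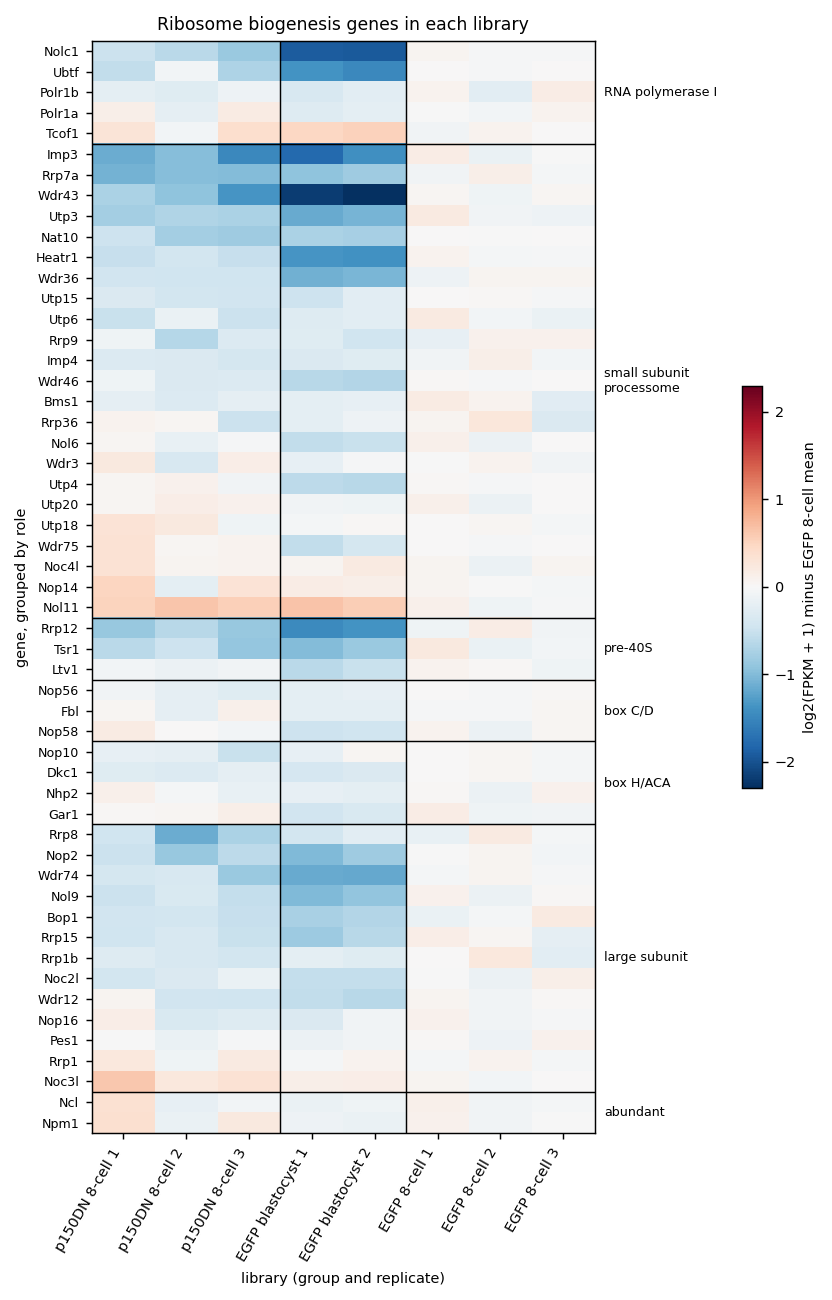
Levels of the 53 genes in each of the 8 libraries (columns), as log2(FPKM + 1) minus the mean of the EGFP 8-cell libraries, with genes in rows grouped by role. Wdr43, Nolc1 and Imp3 are low in all p150DN and blastocyst libraries, while Nol11 is high in all of them.

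The first comparison, p150DN against EGFP 8-cell embryos, asks which of these genes differ when embryos of one stage carry p150DN. In p150DN embryos 17 of the 53 genes (32.1%) fell, 1 (1.89%) rose and 35 did not pass the test (limma, adjusted p below 0.05 over all genes). Of all 11730 tested genes, 9.68% fell and 24.6% rose, 34.3% in all. The steepest falls were in Imp3, Rrp7a and Wdr43 of the small subunit processome, and the gene that rose was Nol11, also of the processome. The median log2 fold change of the 53 genes was -0.25, against 0.19 for all tested genes. In 26 of the 53 genes all p150DN libraries lay below all EGFP 8-cell libraries, a pattern found in 15.5% of tested genes, and in 3 all lay above, found in 34.3%.

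The second comparison, EGFP blastocysts against EGFP 8-cell embryos, asks how the same genes differ between these stages in control embryos. In blastocysts 28 of the 53 genes (52.8%) fell, 2 (3.77%) rose and 23 did not pass. Of all 12199 tested genes, 24.9% fell and 42.6% rose, 67.5% in all. Wdr43 and Nolc1, the highest expressed of the 53 genes in EGFP 8-cell embryos after Npm1, fell the most, and Nol11 and Tcof1 rose. The median log2 fold change was -0.36, against 0.28 for all tested genes. Both blastocyst libraries lay below all EGFP 8-cell libraries in 39 of the 53 genes (30.3% of tested genes) and above them in 4 (49.3% of tested genes). Both comparisons use the same 3 EGFP 8-cell libraries, so their values are given side by side and their likeness was not measured.

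**Figure D2:**
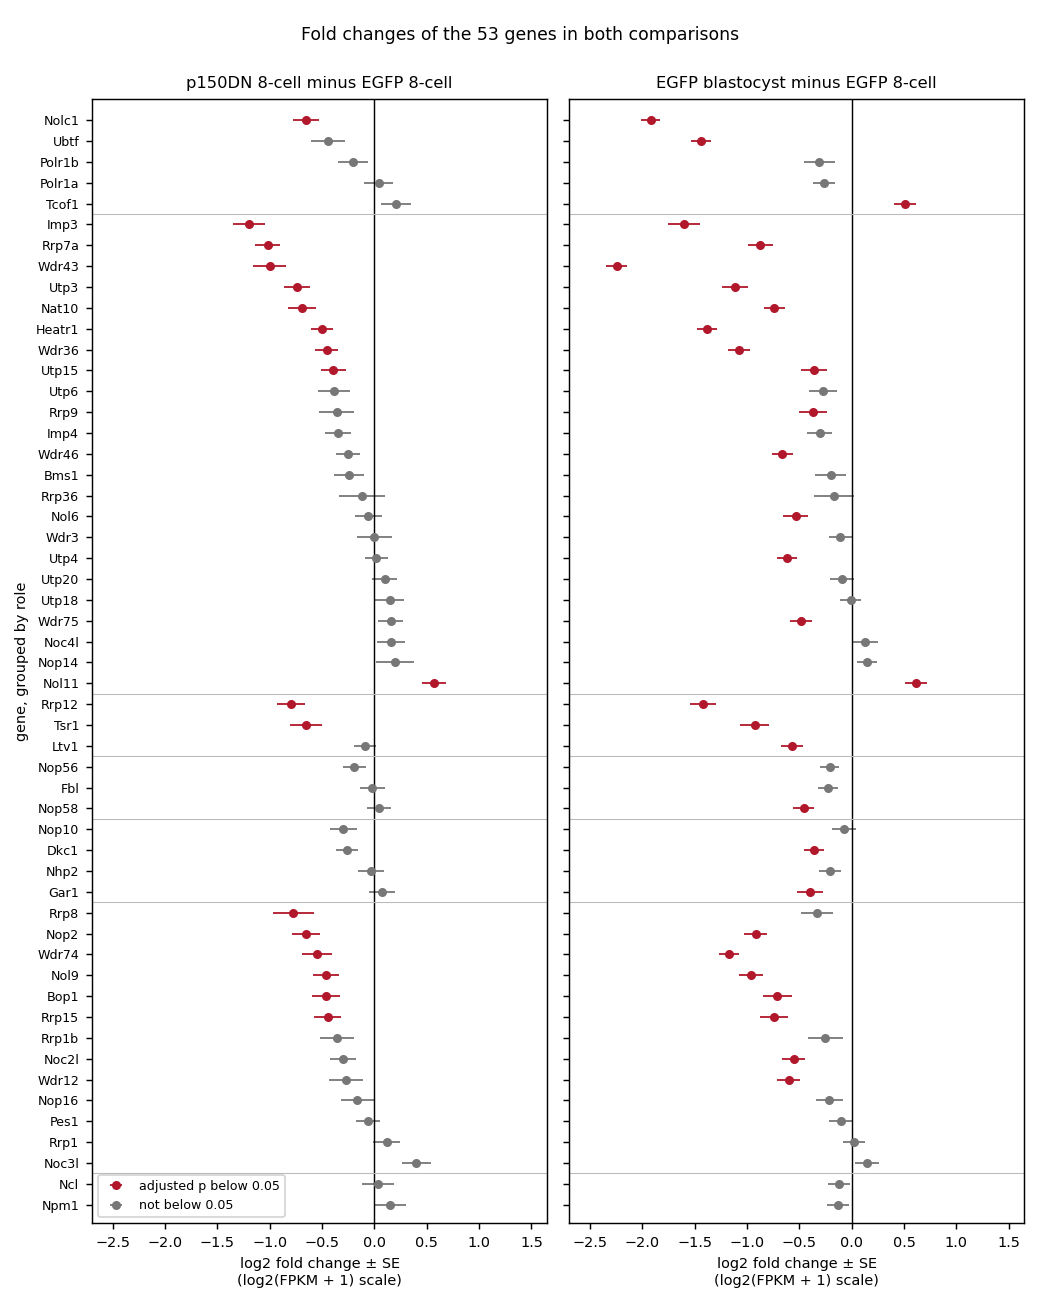
Log2 fold change of each of the 53 genes, by role, for p150DN 8-cell embryos and EGFP blastocysts, each against EGFP 8-cell embryos. Bars are standard errors from limma and red points mark adjusted p below 0.05, with 17 falls and 1 rise for p150DN and 28 falls and 2 rises for blastocysts.

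The level of the genes as a group differed with how libraries are scaled. FPKM divides by the fragment total of each library, but its sum over genes is not fixed. That sum was 405453 to 426297 in p150DN embryos, 451319 to 452896 in blastocysts and 381865 to 401470 in EGFP 8-cell embryos. More genes rose than fell in both comparisons (2887 and 1136 for p150DN, 5198 and 3038 for blastocysts). After median-of-ratios scaling 1753 genes rose and 2239 fell for p150DN, and the median of all genes was -0.06 in place of 0.19. After quantile normalization 1748 rose and 1827 fell, with a median of -0.04. Relative to the median of all genes, the ribosome biogenesis genes stood at -0.44 with the values as deposited, -0.48 with median-of-ratios scaling and -0.18 with quantile normalization. For blastocysts the value was -0.64 with the values as deposited. It was -0.68 with median-of-ratios scaling, where 4289 genes rose and 3751 fell, and -0.49 with quantile normalization, where 3997 rose and 3902 fell. The 17 genes called lower in p150DN embryos and the 28 called lower in blastocysts were all still called lower under both scalings. The rise of Nol11 in p150DN embryos was lost under median-of-ratios scaling (0.28, limma adjusted p = 0.167).

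**Figure D3:**
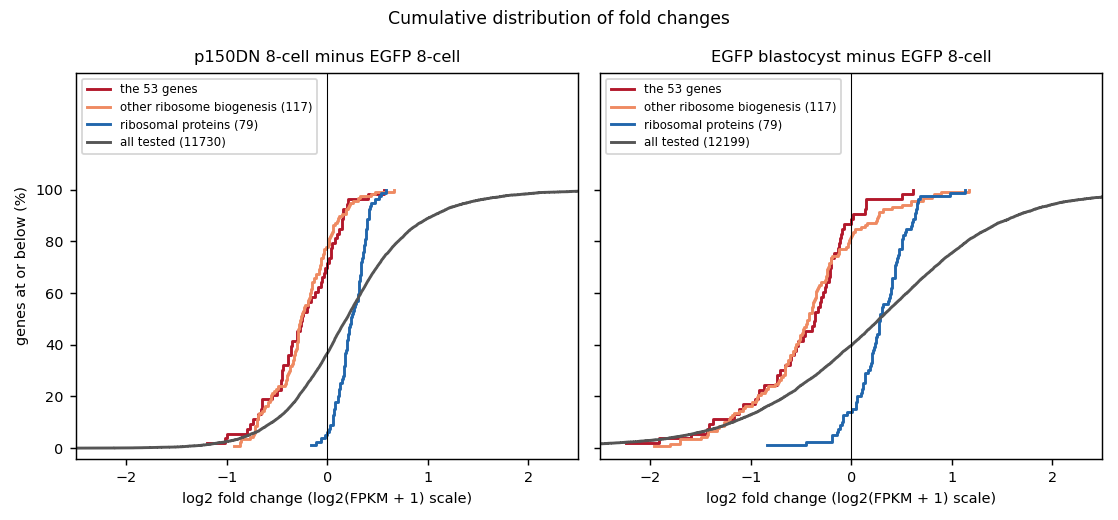
Cumulative share of genes (vertical axis, in percent) at or below each log2 fold change (horizontal axis, cut to the central range) for the 53 genes, the other ribosome biogenesis genes, the ribosomal protein genes and all tested genes, in both comparisons. The medians of the 53 genes are -0.25 for p150DN and -0.36 for blastocysts, and those of all genes 0.19 and 0.28.

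Among the 5 genes of ribosomal DNA transcription, Nolc1 fell in p150DN embryos and Nolc1 and Ubtf fell in blastocysts. Nolc1 (chr19:46075847-46085543, mm10) encodes a nucleolar phosphoprotein that shuttles snoRNPs and associates with RNA polymerase I. It was at 398, 366 and 311 FPKM in p150DN embryos, 148 and 147 FPKM in blastocysts, and 585, 551 and 549 FPKM in EGFP 8-cell embryos. The 3 groups did not overlap, with p150DN in the middle. Its log2 fold change was -0.65 ± 0.12 (SE, limma adjusted p = 0.0045) in p150DN embryos and -1.92 ± 0.09 (1.84e-05) in blastocysts. Ubtf, the factor that binds and opens the ribosomal DNA promoter, was at 85.5, 121 and 77.5 FPKM in p150DN embryos, 48.1 and 44.6 FPKM in blastocysts, and 128, 125 and 128 FPKM in EGFP 8-cell embryos. All p150DN libraries lay below all EGFP 8-cell libraries, but replicate 2 was close to them. The p150DN difference did not pass (-0.44 ± 0.17, limma adjusted p = 0.066), and it passed without p150DN replicate 2 (-0.63, 0.00507) and in 3 other alternatives of 16. In blastocysts Ubtf fell by 1.44 ± 0.10 on the log2 scale (limma adjusted p = 4.4e-05). Polr1a, the largest subunit of RNA polymerase I, was at 61.5, 48.1 and 63.8 FPKM in p150DN embryos, 45.5 and 47.4 FPKM in blastocysts and 55.5, 53.1 and 59.1 FPKM in EGFP 8-cell embryos, and passed in neither comparison (limma adjusted p = 0.849 for p150DN and 0.0617 for blastocysts). Without EGFP 8-cell replicate 2, and under median-of-ratios scaling, its blastocyst difference passed (-0.30, 0.0475, and -0.49, 0.00637). Tcof1, which encodes treacle, a nucleolar partner of the polymerase related to Nolc1, rose in blastocysts (0.51 ± 0.10, limma adjusted p = 0.00412), with means of 82.5 ± 2.03 FPKM (SD, n = 2) in blastocysts and 57.7 ± 3.34 FPKM (n = 3) in EGFP 8-cell embryos. In p150DN embryos it averaged 67.3 ± 10.8 FPKM (n = 3) and did not pass (0.21, limma adjusted p = 0.298). The ratio of Nolc1 to Tcof1 within a library, which a factor applied to a whole library does not change, was 5.63, 6.64 and 4.10 in p150DN embryos, 1.83 and 1.75 in blastocysts, and 10.7, 9.01 and 9.51 in EGFP 8-cell embryos. This pair, like the other ratios below, and the values of Ubtf in p150DN embryos and of Polr1a were picked after their values were seen.

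The promoters of 5 genes on which the results turn are shown as the 250 bases before to 50 bases after the transcript start that RefSeq gives (assembly GRCm38.p6, gene strand), so that their motifs can be compared. Capitals mark a CACGTG E-box, the MYC and MAX motif, or CCGGAAG, a motif of ETS factors. Wdr43 (chr17:71615965-71616264, plus strand), Rrp7a (chr15:83122752-83123051, minus strand) and Nol11 (chr11:107189332-107189631, minus strand) each hold 1 E-box, Nolc1 (chr19:46075597-46075896, plus strand) holds 1 ETS motif, and Imp3 (chr9:56937250-56937549, plus strand) holds none of the motifs searched. Wdr43, Rrp7a, Nolc1 and Imp3 fell and Nol11 rose in both comparisons.
Wdr43: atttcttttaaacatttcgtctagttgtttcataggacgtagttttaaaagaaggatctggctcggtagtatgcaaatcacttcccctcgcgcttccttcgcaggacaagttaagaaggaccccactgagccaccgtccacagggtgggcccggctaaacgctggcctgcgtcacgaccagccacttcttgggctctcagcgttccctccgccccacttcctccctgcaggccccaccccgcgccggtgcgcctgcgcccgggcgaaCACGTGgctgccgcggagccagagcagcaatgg
Rrp7a: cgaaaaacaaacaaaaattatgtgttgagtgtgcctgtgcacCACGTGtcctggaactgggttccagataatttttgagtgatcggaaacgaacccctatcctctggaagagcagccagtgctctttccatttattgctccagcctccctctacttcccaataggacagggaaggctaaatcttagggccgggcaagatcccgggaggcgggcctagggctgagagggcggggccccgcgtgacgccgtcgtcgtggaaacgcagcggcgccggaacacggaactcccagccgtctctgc
Nol11: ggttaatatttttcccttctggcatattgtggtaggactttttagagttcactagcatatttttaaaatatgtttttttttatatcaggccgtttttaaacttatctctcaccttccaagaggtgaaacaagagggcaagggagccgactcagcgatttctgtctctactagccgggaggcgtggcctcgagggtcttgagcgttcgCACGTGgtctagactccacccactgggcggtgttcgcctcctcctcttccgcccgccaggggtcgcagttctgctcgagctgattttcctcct
Nolc1: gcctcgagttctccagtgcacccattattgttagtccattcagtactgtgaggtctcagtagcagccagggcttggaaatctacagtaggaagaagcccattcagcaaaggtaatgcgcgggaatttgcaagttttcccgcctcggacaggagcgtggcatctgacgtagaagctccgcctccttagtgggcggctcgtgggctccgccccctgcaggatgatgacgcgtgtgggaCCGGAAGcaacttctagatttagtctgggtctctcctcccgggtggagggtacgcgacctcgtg
Imp3: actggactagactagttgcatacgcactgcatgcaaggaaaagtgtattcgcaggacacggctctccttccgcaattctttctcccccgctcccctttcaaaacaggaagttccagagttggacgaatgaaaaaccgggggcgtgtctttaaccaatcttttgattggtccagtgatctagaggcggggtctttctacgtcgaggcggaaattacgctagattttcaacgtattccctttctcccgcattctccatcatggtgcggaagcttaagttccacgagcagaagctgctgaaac

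The small subunit processome supplied 23 of the genes. In p150DN embryos 8 (34.8%) fell and 1 (4.35%) rose (median -0.25), against 9.68% and 24.6% of all tested genes. In blastocysts 13 (56.5%) fell and 1 (4.35%) rose (median -0.37), against 24.9% and 42.6%. Of the subcomplex that binds the precursor first, called UtpA, Wdr43, Heatr1, Utp15, Utp4, Wdr75 and Nol11 are members. Wdr43 (chr17:71616178-71659031, mm10) was at 340, 297 and 221 FPKM in p150DN embryos, 124 and 113 FPKM in blastocysts, and 582, 529 and 586 FPKM in EGFP 8-cell embryos. The groups did not overlap, and the p150DN libraries spread more than the others (SD of 60.2 FPKM over 3 libraries, against 32.1 FPKM over 3 EGFP 8-cell libraries). The log2 fold change of Wdr43 was -1.0 ± 0.16 (limma adjusted p = 0.00233) in p150DN embryos and -2.25 ± 0.10 (1.65e-05) in blastocysts. Heatr1, a large helical-repeat protein of the same subcomplex, was at 95.7, 104 and 95.6 FPKM in p150DN embryos, 53.6 and 52.1 FPKM in blastocysts, and 147, 135 and 136 FPKM in EGFP 8-cell embryos. Again p150DN libraries lay between the others without overlap (-0.50 ± 0.11, limma adjusted p = 0.00825, and -1.38 ± 0.10, 5.22e-05, in blastocysts). Nol11 (chr11:107166651-107189381, mm10), a UtpA subunit of animals, went the other way. It was at 138, 150.2 and 141 FPKM in p150DN embryos, 153 and 144 FPKM in blastocysts, and 104, 90.3 and 94.9 FPKM in EGFP 8-cell embryos. All p150DN and blastocyst libraries lay above the EGFP 8-cell libraries (0.57 ± 0.11, limma adjusted p = 0.00543 for p150DN, and 0.62 ± 0.11, 0.00182, for blastocysts). Utp15 was lower by a small margin in both comparisons (-0.39, limma adjusted p = 0.033, for p150DN and -0.36, 0.0337, for blastocysts), and these calls did not hold up to leaving out single libraries. For p150DN they were lost without p150DN replicate 3 or any of EGFP 8-cell replicates 1, 2 and 3 (adjusted p = 0.098, 0.114, 0.0793 and 0.0755), and for blastocysts without blastocyst replicate 1 or any EGFP 8-cell replicate (0.164, 0.087, 0.0552 and 0.056). Both were also lost with no trend of the variance with level (0.0539 for p150DN and 0.0536 for blastocysts). Utp4 and Wdr75 fell in blastocysts (-0.61 and -0.48, limma adjusted p = 0.00113 and 0.00547). Their p150DN differences of 0.02 for Utp4 and 0.16 for Wdr75 did not pass (adjusted p = 0.914 and 0.34). The ratio of Heatr1 to Utp4 within a library was 0.940, 0.973 and 1.03 in p150DN embryos, 0.822 and 0.819 in blastocysts, and 1.45, 1.40 and 1.37 in EGFP 8-cell embryos.

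Imp3 belongs to a trimer with Imp4 and an M-phase phosphoprotein that holds the guide snoRNA on the precursor. Imp3 (chr9:56937500-56938398, mm10) was at 38.7, 43.0 and 30.3 FPKM in p150DN embryos, 24.4 and 31.6 FPKM in blastocysts, and 96.6, 77.6 and 85.1 FPKM in EGFP 8-cell embryos. Its log2 fold change in p150DN embryos was -1.20 ± 0.16 (limma adjusted p = 0.00101), the largest fall of the 53 genes, and -1.60 ± 0.15 (0.00014) in blastocysts. The p150DN libraries lay well below the EGFP 8-cell libraries, and 1 of them (replicate 3) lay within the blastocyst range. Imp4 did not pass for p150DN (mean 32.4 ± 1.15 FPKM in p150DN libraries, against 41.6 ± 3.65 FPKM in EGFP 8-cell libraries, n = 3, limma adjusted p = 0.0569). The ratio of Imp3 to Imp4 was 1.17, 1.31 and 0.975 in p150DN embryos, 0.746 and 0.928 in blastocysts, and 2.47, 1.70 and 2.14 in EGFP 8-cell embryos.

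Rrp7a, a factor of the subcomplex UtpC, was at 31.8, 34.1 and 33.6 FPKM in p150DN embryos, 35.7 and 38.1 FPKM in blastocysts, and 64.5, 75.1 and 65.9 FPKM in EGFP 8-cell embryos. Its p150DN libraries lay below the EGFP 8-cell libraries and, by little, below both blastocyst libraries (-1.02 ± 0.12, limma adjusted p = 0.000662, and -0.87 ± 0.12, 0.000575, in blastocysts). Rrp7a (chr15:83115846-83122801, mm10) overlaps the gene Serhl, and the strand setting of the counting is not given, so part of its reads could belong there. Nat10, an RNA acetyltransferase that modifies the small subunit RNA, was at 38.4, 30.6 and 30.1 FPKM in p150DN embryos, 32.0 and 31.3 FPKM in blastocysts, and 53.8, 53.1 and 53.7 FPKM in EGFP 8-cell embryos. The p150DN and blastocyst libraries of Nat10 overlapped each other and lay below all EGFP 8-cell libraries (-0.69 ± 0.13, limma adjusted p = 0.00525 for p150DN, and -0.74 ± 0.10, 0.000652, for blastocysts). Utp3, a processome factor encoded by a gene with a single exon, was at 92.0, 97.7 and 95.5 FPKM in p150DN embryos, 70.8 and 75.4 FPKM in blastocysts, and 183, 149.9 and 147 FPKM in EGFP 8-cell embryos (-0.74 ± 0.12, limma adjusted p = 0.00268 for p150DN, and -1.11 ± 0.13, 0.000291, for blastocysts). Wdr36, of the subcomplex UtpB, was at 83.9, 83.5 and 82.9 FPKM in p150DN embryos, 52.9 and 54.7 FPKM in blastocysts, and 106, 119 and 119 FPKM in EGFP 8-cell embryos. For both genes the p150DN libraries lay between the other groups and close together (Wdr36 -0.46 ± 0.11, limma adjusted p = 0.0126, and -1.08 in blastocysts, 0.000153). Its UtpB partners among the 53, Wdr3, Utp6 and Utp18, passed in neither comparison. Of the UtpB genes outside the 53, named after their values were seen, Tbl3 fell in both (-0.69 ± 0.14, limma adjusted p = 0.00672 for p150DN, and -1.21 ± 0.11, 0.000113, for blastocysts) and Pwp2 passed in neither (0.429 and 0.104). The GTPase gene Bms1, the scaffold gene Utp20, the paired factors Nop14 and Noc4l, and Rrp36 passed in neither either. Wdr46, Nol6 and Rrp9 fell in blastocysts (-0.66, -0.54 and -0.37, limma adjusted p = 0.000938, 0.00568 and 0.0414) but did not pass for p150DN (0.127, 0.755 and 0.122). The Rrp9 call was lost without blastocyst replicate 1 or 2 (adjusted p = 0.0787 and 0.21) and without EGFP 8-cell replicate 2 or 3 (0.0827 and 0.0985). It was also lost in the fit on all 8 libraries (limma adjusted p = 0.0911), with no filter on low values (0.0641) and with no trend of the variance with level (0.0694).

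**Figure D4:**
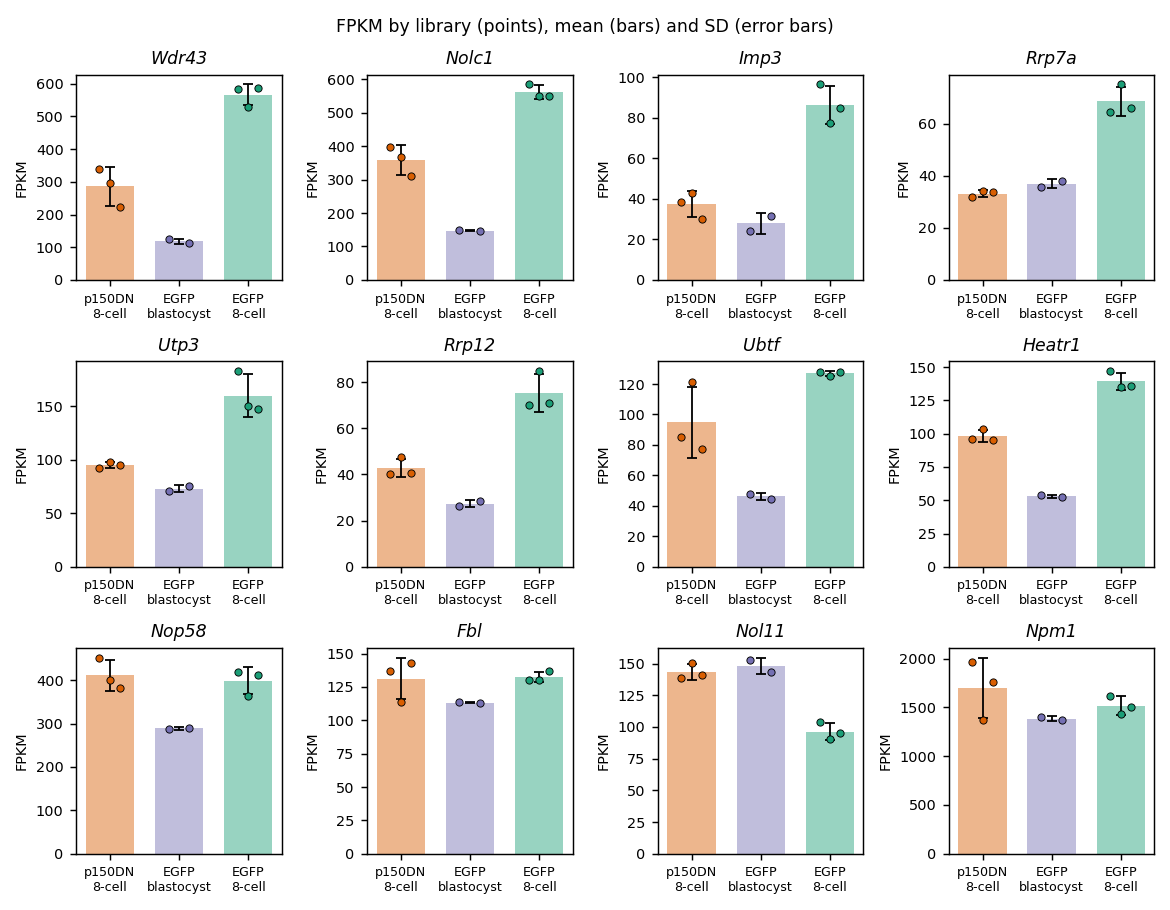
FPKM of 12 of the genes in p150DN 8-cell embryos, EGFP blastocysts and EGFP 8-cell embryos, with points for libraries, bars for means and error bars for the SD. Wdr43 and Nolc1 are separated into 3 levels with p150DN in the middle, while in Nol11 the EGFP 8-cell libraries (90.3 to 104 FPKM) lie below all others.

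Late maturation of the small subunit was represented by 3 genes. In p150DN embryos 2 (66.7%) fell (median -0.66), against 9.68% of all tested genes. All 3 fell in blastocysts (median -0.93), against 24.9% of all tested genes. Rrp12, a factor for export and maturation of the precursor particles, was at 40.3, 47.5 and 40.7 FPKM in p150DN embryos, 26.5 and 28.3 FPKM in blastocysts, and 70.1, 84.7 and 70.8 FPKM in EGFP 8-cell embryos. Tsr1, a GTPase-like protein that sits on the precursor, was at 71.8, 79.6 and 59.3 FPKM in p150DN embryos, 54.6 and 60.8 FPKM in blastocysts, and 129, 99.4 and 105 FPKM in EGFP 8-cell embryos. Both lay below every EGFP 8-cell library in p150DN embryos, and p150DN overlapped blastocysts for Tsr1 but not for Rrp12. In p150DN embryos the log2 fold change was -0.80 ± 0.13 (limma adjusted p = 0.00273) for Rrp12 and -0.66 ± 0.15 (0.0112) for Tsr1. In blastocysts it was -1.42 ± 0.13 (limma adjusted p = 0.000106) for Rrp12 and -0.93 ± 0.14 (0.000982) for Tsr1. Without EGFP 8-cell replicate 1 the p150DN difference of Tsr1 was -0.55 and did not pass (limma adjusted p = 0.0529). Ltv1, an assembly factor released late from the particle, was at 181, 171 and 177 FPKM in p150DN embryos, 122 and 131 FPKM in blastocysts, and 199, 191 and 176 FPKM in EGFP 8-cell embryos. Its p150DN and EGFP 8-cell values overlapped (-0.09 ± 0.11, limma adjusted p = 0.514) and it fell in blastocysts (-0.57 ± 0.10, 0.00223).

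By limma 0 of the 7 snoRNP protein genes passed for p150DN, and 2, Dkc1 and Nop10, were lower at an unadjusted p below 0.05. At an adjusted p below 0.05, 9.68% of all tested genes were called lower and 24.6% higher for p150DN. The share of all genes at an unadjusted p is not given here, so the 2 lower genes have no background to be set against. The box C/D particles carry methyltransferase activity through Fbl, with Nop56 and Nop58 as their core (median -0.02 for p150DN and -0.23 for blastocysts). Nop58 was at 451, 402 and 381 FPKM in p150DN embryos, 287 and 291 FPKM in blastocysts, and 420.2, 363 and 413 FPKM in EGFP 8-cell embryos. Its p150DN and EGFP 8-cell libraries overlapped (0.04 ± 0.12, limma adjusted p = 0.796, with a negative sign under median-of-ratios scaling), and it fell in blastocysts (-0.46 ± 0.10, 0.00644), a call lost without blastocyst replicate 1 (0.053). Fbl was at 137, 114 and 143 FPKM in p150DN embryos, 113 and 113 FPKM in blastocysts, and 130.4, 130.3 and 137 FPKM in EGFP 8-cell embryos (limma adjusted p = 0.913 for p150DN and 0.0633 for blastocysts). The box H/ACA particles, which turn uridine into pseudouridine, hold Dkc1, the enzyme, with Nhp2, Nop10 and Gar1 (median -0.15 for p150DN and -0.28 for blastocysts). Nhp2 was at 280.3, 251 and 229 FPKM in p150DN embryos, 226 and 221 FPKM in blastocysts, and 263, 236 and 277 FPKM in EGFP 8-cell embryos, and passed in neither comparison (limma adjusted p = 0.864 for p150DN and 0.122 for blastocysts). The blastocyst difference of Nhp2 passed without EGFP 8-cell replicate 2 (-0.27, 0.0371), under median-of-ratios scaling (-0.43, 0.0148) and under quantile normalization (-0.23, 0.0417). Dkc1 and Gar1 fell in blastocysts (-0.36 and -0.40, limma adjusted p = 0.0122 and 0.025). The Dkc1 call was lost without blastocyst replicate 1 (adjusted p = 0.0584), and that of Gar1 without blastocyst replicate 1 or 2 or EGFP 8-cell replicate 1 (0.134, 0.0745 and 0.0781). Relative to Nop58 in the same library, Wdr43 stood at 0.754, 0.740 and 0.580 in p150DN embryos, 0.431 and 0.389 in blastocysts, and 1.39, 1.46 and 1.42 in EGFP 8-cell embryos. The same ratio for Nolc1 was 0.881, 0.912 and 0.816 in p150DN embryos, 0.517 and 0.505 in blastocysts, and 1.39, 1.52 and 1.33 in EGFP 8-cell embryos, so in both ratios the 3 groups did not overlap.

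Of the 13 large subunit factors, 6 (46.2%) fell in p150DN embryos and 7 (53.8%) in blastocysts (median -0.36 for p150DN and -0.55 for blastocysts). Among all tested genes 9.68% fell in p150DN embryos and 24.9% in blastocysts. Nop2, a methyltransferase of the large subunit RNA, was at 66.0, 50.5 and 60.7 FPKM in p150DN embryos, 45.5 and 52.1 FPKM in blastocysts, and 92.8, 97.0 and 89.1 FPKM in EGFP 8-cell embryos. Rrp8, another methyltransferase, was at 21.5, 13.0 and 17.5 FPKM in p150DN embryos, 22 and 25 FPKM in blastocysts, and 26.3, 34.7 and 28.8 FPKM in EGFP 8-cell embryos. For both genes every p150DN library lay below every EGFP 8-cell library, and for Rrp8 also below both blastocyst libraries. Nop2 fell in both comparisons (-0.65 ± 0.13, limma adjusted p = 0.00607 for p150DN, and -0.92 ± 0.11, 0.000369, for blastocysts). Rrp8 fell in p150DN embryos (-0.77 ± 0.20, limma adjusted p = 0.0158) and did not pass in blastocysts (-0.33 ± 0.15, 0.0874). Its p150DN call was lost without EGFP 8-cell replicate 2 (0.0568), and the gene overlaps Ilk, whose reads may not be separable. Wdr74, a cofactor of the remodelling enzyme of the precursor, was at 140.3, 144 and 103 FPKM in p150DN embryos, 82.8 and 82.3 FPKM in blastocysts, and 182, 196 and 184 FPKM in EGFP 8-cell embryos. Nol9, a polynucleotide kinase that acts on the spacer between the large subunit RNAs, was at 61.6, 68.8 and 59.7 FPKM in p150DN embryos, 43.0 and 46.0 FPKM in blastocysts, and 93.7, 79.9 and 89.8 FPKM in EGFP 8-cell embryos. In both genes the 3 groups were separated, with p150DN in the middle. The p150DN falls were -0.55 ± 0.15 (limma adjusted p = 0.0193) for Wdr74 and -0.46 ± 0.12 (0.0178) for Nol9, and the blastocyst falls -1.17 ± 0.09 (7.93e-05) for Wdr74 and -0.96 ± 0.11 (0.000349) for Nol9. The call for Wdr74 was lost without p150DN replicate 3, EGFP 8-cell replicate 1 or EGFP 8-cell replicate 2 (limma adjusted p = 0.0523, 0.0581 and 0.0611), and that for Nol9 without p150DN replicate 3, EGFP 8-cell replicate 1 or EGFP 8-cell replicate 3 (0.0652, 0.0865 and 0.0574).

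Bop1, Pes1 and Wdr12 form one complex that processes the large subunit precursor. Bop1 fell in both comparisons (-0.46, limma adjusted p = 0.0285 for p150DN, and -0.71, 0.00344, for blastocysts). Wdr12 fell in blastocysts (-0.60, 0.00263) and did not pass for p150DN (0.215), and Pes1 passed in neither (limma adjusted p = 0.723 for p150DN and 0.428 for blastocysts). Rrp15 likewise fell in both comparisons (-0.45, limma adjusted p = 0.0253 for p150DN, and -0.74, 0.00256, for blastocysts). The p150DN call of Bop1 was lost without p150DN replicate 3, EGFP 8-cell replicate 2 or EGFP 8-cell replicate 3 (0.0908, 0.056 and 0.1), and that of Rrp15 without p150DN replicate 1 or 3 or EGFP 8-cell replicate 1 or 2 (0.0516, 0.0826, 0.118 and 0.0709). Both were also lost with no trend of the variance with level (limma adjusted p = 0.0516 for Bop1 and 0.0565 for Rrp15). Noc2l and Noc3l encode partner proteins of the early large subunit particle, and Noc2l fell in blastocysts (-0.55, limma adjusted p = 0.00358). For p150DN neither passed, with differences of -0.30 for Noc2l and 0.40 for Noc3l (adjusted p = 0.0886 and 0.0553). Rrp1, Rrp1b and Nop16 passed in neither comparison.

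The most abundant nucleolar proteins, Npm1 and Ncl, passed in neither comparison. Npm1, a histone and ribosomal protein chaperone, was at 1969, 1368 and 1762 FPKM in p150DN embryos, 1403 and 1365 FPKM in blastocysts, and 1620, 1428 and 1506 FPKM in EGFP 8-cell embryos. The p150DN libraries spread on both sides of the EGFP 8-cell libraries (0.15 ± 0.15, limma adjusted p = 0.47, with a negative sign under both other scalings). In blastocysts the difference was -0.13 ± 0.10 (limma adjusted p = 0.286), and it passed under median-of-ratios scaling (-0.36, 0.0408) and quantile normalization (-0.52, 0.000845). Ncl, nucleolin, was at 637, 437 and 477 FPKM in p150DN embryos, 446 and 466 FPKM in blastocysts, and 541, 471 and 481 FPKM in EGFP 8-cell embryos (limma adjusted p = 0.868 for p150DN and 0.316 for blastocysts). Genes such as Npm1 and Nhp2 have processed copies in the genome, and the counting could have split reads with them.

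A further 117 ribosome biogenesis genes outside the 53 were counted. In p150DN embryos 31 (26.5%) fell and 1 (0.855%) rose, with a median of -0.27, and in blastocysts 70 (59.8%) fell and 9 (7.69%) rose, with a median of -0.43. Of all tested genes, 9.68% fell and 24.6% rose in p150DN embryos, and 24.9% fell and 42.6% rose in blastocysts. Naf1, which assembles box H/ACA particles and does not stay in them, had the largest p150DN fall. It was at 27.0, 25.7 and 21.0 FPKM in p150DN embryos, 12.5 and 13.2 FPKM in blastocysts, and 45, 50.6 and 46.6 FPKM in EGFP 8-cell embryos, 3 levels without overlap (-0.93 ± 0.14, limma adjusted p = 0.00178 for p150DN, and -1.80 ± 0.12, 3.98e-05, for blastocysts). Mphosph6, an exosome cofactor, and Znhit3, a box C/D assembly factor, fell next (-0.87 ± 0.14 and -0.87 ± 0.16, limma adjusted p = 0.00222 and 0.00436). In blastocysts the polymerase I factors Taf1a (-1.97 ± 0.12, limma adjusted p = 3.31e-05) and Rrn3 (-1.71 ± 0.11, 4.16e-05) fell most beside Naf1. Rrn3, which recruits the polymerase to the promoter, had means of 91.8 ± 13.5 FPKM over 3 p150DN libraries, 44.4 ± 2.10 FPKM over 2 blastocyst libraries and 148 ± 12.5 FPKM (SD) over 3 EGFP 8-cell libraries. Efl1, a GTPase of late large subunit maturation, rose in both comparisons (0.67 ± 0.20, limma adjusted p = 0.0293 for p150DN, and 1.17 ± 0.21, 0.00199, for blastocysts). Its p150DN call was lost without p150DN replicate 1 or 3 or EGFP 8-cell replicate 1 or 3 (0.0565, 0.0994, 0.116 and 0.0722). It was also lost under median-of-ratios scaling (0.41, limma adjusted p = 0.135), under quantile normalization (0.36, 0.164) and with no filter on low values (0.67, 0.0587). Ruvbl2 and Pih1d1, chaperones of snoRNP assembly, rose in blastocysts (0.89 ± 0.12 and 0.82 ± 0.13, limma adjusted p = 0.000654 and 0.00131).

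Of 79 cytoplasmic ribosomal protein genes, 0 fell and 14 (17.7%) rose in p150DN embryos by limma (0 lower and 31 higher at an unadjusted p below 0.05), and 1 fell and 39 (49.4%) rose in blastocysts. At the same adjusted threshold, 24.6% of all tested genes rose in p150DN embryos and 42.6% in blastocysts. The share of all genes at an unadjusted p is not given here, so the 31 genes have no background to be set against. The ribosomal protein genes' median was 0.23 for p150DN, against 0.19 for all tested genes, and 0.28 for blastocysts, against 0.28. The precursor itself is listed as Rn45s, at 6236, 7443 and 4347 FPKM in p150DN embryos, 4886 and 2142 FPKM in blastocysts, and 4959, 7506 and 5391 FPKM in EGFP 8-cell embryos, with overlap in the first comparison (limma adjusted p = 0.993) and no pass in the second (0.0597). How much ribosomal RNA the libraries kept is not known, so these values do not measure its production.

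Of 12 genes of the MYC network, 2 fell and 2 rose in p150DN embryos and 3 fell and 3 rose in blastocysts. As shares these were 16.7% lower and 16.7% higher for p150DN, against 9.68% and 24.6% of all tested genes, and 25% lower and 25% higher for blastocysts, against 24.9% and 42.6%. Myc was at 5.95, 11.0 and 11.4 FPKM in p150DN embryos, 6.07 and 5.26 FPKM in blastocysts, and 13.0, 19.5 and 16.4 FPKM in EGFP 8-cell embryos, so every p150DN and blastocyst library lay below every EGFP 8-cell library. Myc fell in both comparisons (-0.76 ± 0.25, limma adjusted p = 0.0437 for p150DN, and -1.36 ± 0.19, 0.000753, for blastocysts). The p150DN call stood close to the threshold and was lost without p150DN replicate 1 or 3 (0.09 and 0.0508) and without EGFP 8-cell replicate 1, 2 or 3 (0.0527, 0.135 and 0.1). Without p150DN replicate 1, the lowest p150DN library for Myc, its log2 fold change was -0.49. The call was also lost with no filter on low values (limma adjusted p = 0.0962) and with no trend of the variance with level (0.0542). Max was at 25.6, 28.9 and 26.8 FPKM in p150DN embryos, 29.5 and 29.1 FPKM in blastocysts, and 16.5, 18.5 and 15.8 FPKM in EGFP 8-cell embryos. All p150DN and blastocyst libraries lay above the EGFP 8-cell libraries. It rose in both comparisons (0.65 ± 0.13, limma adjusted p = 0.007 for p150DN, and 0.76 ± 0.13, 0.00157, for blastocysts). The p150DN call of Max was lost under median-of-ratios scaling (0.37, 0.0791). Mycn and Mycl did not pass for p150DN (limma adjusted p = 0.375 and 0.748) or for blastocysts (0.325 and 0.812). Without EGFP 8-cell replicate 2, Mycn passed for p150DN (1.3, limma adjusted p = 0.031) and for blastocysts (1.36, 0.002). Mycn was at 0.555, 6.19 and 1.12 FPKM in EGFP 8-cell replicates 1, 2 and 3.

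The promoters were searched on both strands for 5 motifs spelled out here, in the 45 of the 53 genes that the RefSeq table covers. CACGTG, an E-box, was present in 12 of 45 (26.7%), in 14 of 98 promoters of the other ribosome biogenesis genes (14.3%), in 12.0% of 9017 tested genes and in 8.09% of all 27025 genes with a promoter. Among the genes called lower in p150DN embryos it was in 4 of 14 (28.6%), namely Wdr43, Rrp7a, Tsr1 and Nop2. CCGGAAG, the ETS motif, was in 18 of 45 (40%), against 45.9% of the other ribosome biogenesis genes, 41.4% of ribosomal protein genes, 21.5% of tested genes and 9.93% of all genes. ATGGCG, a YY1 motif, was in 14 of 45 (31.1%), against 27.6% of the other ribosome biogenesis genes and 27.6% of ribosomal protein genes. It was in 18.5% of tested genes and 10.2% of all genes. For CATGCGC, an NRF1 motif, the share was 3 of 45 (6.67%), against 12.2%, 13.8%, 8.26% and 4.41% in the same 4 sets. For CTCGCGA it was 4 of 45 (8.89%), against 4.08%, 24.1%, 4.95% and 2.22%. A match describes letters in these windows and is not a binding site.

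The 53 genes lie on 17 chromosomes, and 17 of them overlap another annotated gene. Those called in either comparison were Nol11, Heatr1, Nat10, Wdr36, Rrp7a, Tsr1, Dkc1, Bop1, Wdr12, Rrp8, Rrp15 and Noc2l. Part of their reads could belong to the overlapping genes, since the strand setting of the counting is not given. Annotated snoRNA genes lie inside 6 of the 53 (11.3%), 16 snoRNAs in all, against 258 of 10635 tested protein-coding genes (2.43%). Nop56 holds 5 of them, Nop58 4, Wdr43 3, Ncl 2, and Tsr1 and Dkc1 1 each. Of these hosts Wdr43 and Tsr1 fell in p150DN embryos, and Wdr43, Tsr1, Nop58 and Dkc1 fell in blastocysts. Of 8 snoRNA host genes outside the 53, 1 (Snhg5, 12.5%) fell in p150DN embryos, against 9.68% of all tested genes, and 3 (37.5%) fell and 1 (12.5%) rose in blastocysts, against 24.9% and 42.6%.

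With p150DN replicates 2 and 3 left out, the libraries that detected the most genes, 1 p150DN library remained. The median of the 53 genes was then -0.11, against 0.14 for all tested genes. Fewer of the 53 genes were called lower than in the main fit. Ubtf stood at -0.56, and Nol11, at 0.52, no longer passed. The p150DN library that was kept is assumed in this fit to vary like the EGFP 8-cell libraries. Among the libraries the median difference of the 53 genes from the EGFP 8-cell mean was -0.11, -0.31 and -0.29 in p150DN replicates 1, 2 and 3, -0.42 and -0.34 in blastocysts, and 0.03, -0.03 and -0.02 in EGFP 8-cell replicates. The alternatives that left out any 1 library in turn gave 12 to 19 lower genes for p150DN and 23 to 29 for blastocysts. Of all tested genes they called 5.65% to 11% lower for p150DN and 18.7% to 24.6% for blastocysts. Without p150DN replicate 2, 3 of the 53 genes were higher, and without EGFP 8-cell replicate 1 the calls over all genes dropped to 2538. Calls of Nolc1, Wdr43, Imp3, Rrp7a, Utp3, Heatr1 and Rrp12 as lower in p150DN embryos held in all 16 alternatives run.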

How the data were processed

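RNA-seq was used for 8 libraries, prepared from total RNA of embryo lysates by the SMART-seq stranded method, per the labels' protocols. The submitters' processing notes name Trim Galore, HISAT2, Bowtie2, SAMtools, featureCounts and mm10 without versions or roles. Which annotation was counted, and on which strand, is not given in the sources used here. The authors deposited FPKM values for 25220 gene symbols, per the file headers. Columns named for 8-cell embryos without p150DN were taken as EGFP 8-cell, since the labels hold no other such RNA-seq group. FPKM is relative to each library's total, so total RNA per embryo cannot be seen. Depth and exon lengths were recovered from the values as whole fragments (tolerance 0.02), giving 16578221 to 22488477 fragments, or 16.6 to 22.5 per kilobase at 1 FPKM.

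limma 3.58.1 (R 4.3.3, eBayes with trend, two-sided) was run on log2(FPKM + 1), which understates changes of low genes, over all genes of at least 1 FPKM in 3 (p150DN) or 2 (blastocyst) libraries, fitting just both groups compared. Genes with Benjamini-Hochberg adjusted p below 0.05 were called. The script was tested on simulated data. Coordinates and promoters are RefSeq's for GRCm38.p6, the assembly of mm10, and 24920 symbols matched. Values per library were given for the 12 called genes of largest change in each comparison and the highest gene of each role. The genes, lists and motifs were chosen with earlier results of these data known. Alternatives were the pseudocount, the filter, scaling, the fit and left-out libraries.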

Additional observations from a re-analysis of the deposited data

How the results depend on the processing

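For p150DN, 17 genes were lower and 1 higher of the 53, with a median of -0.25. Median-of-ratios scaling gave 29 lower, 0 higher by limma (0 also at an unadjusted p below 0.05) and a median of -0.54, the fit on all 8 libraries 2 higher, and leaving out p150DN replicates 2 and 3, with fewer samples, 8 lower, a median of -0.11 and 2483 of all genes called. Leaving out 1 library gave 12 to 19 lower, 1 to 3 higher, medians of -0.27 to -0.21 and 2538 to 4066 genes called, against 4023. For blastocysts, 28 were lower and 2 higher (median -0.36). Median-of-ratios scaling gave 44 lower and a median of -0.59, quantile normalization a median of -0.47, and leaving out 1 library 23 to 29 lower, medians of -0.42 to -0.34 and 6149 to 8203 genes called, against 8236. Over all genes, median-of-ratios scaling called 19.1% lower for p150DN, against 9.68% as deposited, and 30.7% for blastocysts, against 24.9%. Leaving out 1 library called 5.65% to 11% of all genes lower for p150DN and 18.7% to 24.6% for blastocysts. The causes were not tested. The pseudocount, filter and trend kept these counts within 1.5 times.

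Genes near 0 changed sign without passing: for p150DN Polr1a (-0.25) and Nop58 (-0.25) under median-of-ratios scaling, Npm1 under median-of-ratios scaling (-0.14) and quantile normalization (-0.15), and Nhp2 (0.011) and Mycl (-0.18) under quantile normalization. With p150DN replicates 2 and 3 left out these were Nhp2 (0.12), Mycn (-0.0088) and Mycl (-0.43). Leaving out 1 library gave values of -0.036 to 0.163 for Polr1a, -0.024 to 0.097 for Nop58, -0.106 to 0.040 for Nhp2 and -0.132 to 0.597 for Mycl, and for blastocysts -0.434 to 0.294 for Mycl.

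Samples with the same replicate number deviated together little (r of 0.06, 0.10 and 0.03 for p150DN, -0.03 and -0.05 for blastocysts). These values cannot show whether the numbers pair samples, since each group has 2 or 3 libraries. With a replicate block 16 genes were lower and 1 higher for p150DN (4081 genes called) and 26 lower and 2 higher for blastocysts (7861 called). Of all tested genes, the block called 10.3% lower for p150DN and 23.8% for blastocysts. The block also ended the calls of Utp15 (limma adjusted p = 0.0559 for p150DN and 0.0718 for blastocysts) and of Rrp9 in blastocysts (0.130). Each value of the 53 genes rested on at least 415 fragments.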
